A study of Homo sapiens with 4 samples.

Results

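Heterogeneous nuclear ribonucleoproteins (HNRNP), SR proteins (SRSF) and the SF3 and U2AF splicing factors were followed in Jurkat cells, a leukemia line of human T lymphocytes, after short hairpin RNA (shRNA) was aimed at SLEAR, which the series title ties to lupus and to cell death. The members were every row of the deposited expression table whose gene symbol named an HNRNP gene, a numbered SRSF gene, a numbered SF3A or SF3B gene or a U2AF gene, without HNRNPF. This gave 50 of 16328 rows, of which 26 were HNRNP, 11 SRSF and 13 SF3/U2AF. There were 3 SLEAR shRNA libraries, numbered 1 to 3, from cells transduced with a lentiviral vector that carries hairpins against SLEAR, and 1 Control library, which the series' design text calls control shRNA. No allele, drug or time is named for any library, and it is not said in the labels if the numbers mark different hairpins, different cultures or repeats. A p-value here therefore reflects the spread of these libraries, which may be technical. Values of the SLEAR shRNA group are given in the order of libraries 1, 2 and 3, each alone, and the Control has no replicate. Reads came from the 3' ends of polyadenylated RNA (MAPS, a multiplexed method that sequences the ends next to the poly(A) tail), and values were read numbers scaled to the total of each library (RPM), not divided by transcript length.

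HNRNP proteins coat nascent transcripts, and many of them keep exons out of the mature message or regulate its export and decay. SR proteins bind exonic enhancers and recruit the spliceosome to the splice sites beside them. U2AF reads the polypyrimidine tract and the AG at the 3' end of an intron, and the SF3A and SF3B complexes, parts of the U2 small nuclear ribonucleoprotein, hold it on the branch point. Many HNRNP and SR genes adjust their own output through exons that lead to decay of the message, and SF3B1, U2AF1 and SRSF2 are recurrently mutated in leukemias and related blood disorders.

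The promoters of 5 members that the results below turn on are shown, the first 3 of members that lay higher and the last 2 of members that lay lower in every SLEAR shRNA library than in Control. They are the RefSeq windows of GRCh38.p14 (300 bases around the start of the gene, written 5' to 3' on its strand), and capitals mark every match to any of 4 motifs on either strand. These were TATAAA, the TATA box, then CCAAT, the box of that name, then GGGCGG, known as the GC box, and finally CGGAAG, the core of sites for ETS factors. No base lay in matches to more than 1 of these motifs.
HNRNPAB, chr5:178204283-178204582, plus strand: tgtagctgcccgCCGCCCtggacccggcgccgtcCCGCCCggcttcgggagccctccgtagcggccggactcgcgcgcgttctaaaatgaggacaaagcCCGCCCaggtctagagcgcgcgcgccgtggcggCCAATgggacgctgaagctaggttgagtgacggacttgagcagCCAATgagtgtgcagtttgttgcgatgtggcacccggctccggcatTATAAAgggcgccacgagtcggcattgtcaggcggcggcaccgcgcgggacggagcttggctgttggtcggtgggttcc
SF3A2, chr19:2236574-2236873, plus strand: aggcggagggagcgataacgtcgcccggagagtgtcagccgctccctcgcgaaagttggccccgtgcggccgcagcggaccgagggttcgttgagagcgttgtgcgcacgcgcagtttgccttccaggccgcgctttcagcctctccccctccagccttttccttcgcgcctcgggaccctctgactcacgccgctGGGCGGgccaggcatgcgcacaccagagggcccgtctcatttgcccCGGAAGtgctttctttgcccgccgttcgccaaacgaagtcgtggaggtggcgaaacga
SF3B5, chr6:144095524-144095823, minus strand: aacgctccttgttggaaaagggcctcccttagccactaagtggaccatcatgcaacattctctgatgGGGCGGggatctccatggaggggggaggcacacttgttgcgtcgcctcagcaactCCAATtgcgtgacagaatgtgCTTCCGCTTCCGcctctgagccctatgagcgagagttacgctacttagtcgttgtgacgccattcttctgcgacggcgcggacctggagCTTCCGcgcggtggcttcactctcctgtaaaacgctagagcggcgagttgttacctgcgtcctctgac
HNRNPH1, chr5:179634735-179635034, minus strand: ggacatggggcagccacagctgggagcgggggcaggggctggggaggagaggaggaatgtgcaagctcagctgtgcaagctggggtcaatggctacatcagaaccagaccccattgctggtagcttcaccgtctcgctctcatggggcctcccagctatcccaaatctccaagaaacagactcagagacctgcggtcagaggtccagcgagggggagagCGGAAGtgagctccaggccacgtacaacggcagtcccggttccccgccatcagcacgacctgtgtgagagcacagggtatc
SF3B1, chr2:197434979-197435278, minus strand: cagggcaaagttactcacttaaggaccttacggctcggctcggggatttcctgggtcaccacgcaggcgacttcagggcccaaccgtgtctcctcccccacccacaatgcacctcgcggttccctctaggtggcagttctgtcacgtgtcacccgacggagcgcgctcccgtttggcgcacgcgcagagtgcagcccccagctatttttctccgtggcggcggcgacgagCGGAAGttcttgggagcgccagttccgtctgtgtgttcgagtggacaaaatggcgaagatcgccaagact
HNRNPAB carried the only TATA box of the 5, a motif in 12.8% of member promoters, 5.28% of those of tested genes and 11.5% of all promoters, and 2 CCAAT boxes, and it had no ETS core. The other 4 each had at least 1 ETS core, with 3 in SF3B5. Over the promoters matched to 39 of the member genes, 22 (56.4%) held the ETS core, against 33.3% of 8680 promoters of genes tested here and 19.5% of all 35116 promoters in the table. The GC box was in 66.7% of member promoters, 69.8% of those of tested genes and 45% of all promoters, and the CCAAT box in 35.9%, 36.9% and 34.6%. A match is a run of letters and not a shown binding site.

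The libraries differed in depth and likeness. The estimated depth was 7048616, 7524276 and 4814174 reads in the SLEAR shRNA group and 8384919 reads in Control. SLEAR shRNA-3 stood apart. Across the 12350 rows tested, which are not independent, its log2 values had Pearson correlations of 0.883 and 0.886 with the other SLEAR shRNA libraries and 0.878 with Control, while the remaining pairs ranged between 0.962 and 0.977. It held 6941 rows at 0, where the other SLEAR shRNA libraries held 2641 and 2314 and Control 2984. Of the 50 member rows, 1, 3 and 9 were at 0 in SLEAR shRNA and 3 in Control. Of 10 T lineage markers, 9 were at 1 RPM or more in every library, with a summed level of 4384 to 4482 RPM in the SLEAR shRNA libraries and 3992 RPM in Control; CD3G was near 0. The summed level of the B lineage markers with a row, nearly all of it CD79A, was 19.7 to 23.1 RPM in SLEAR shRNA and 12.0 RPM in Control, and that of myeloid, erythroid and epithelial markers was at most 3.19 RPM in any library. No row for SLEAR was analysed here, which leaves the knockdown unchecked. Fewer cells of a type and less RNA per cell cannot be told apart in such bulk libraries.

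Of the 50 member rows, 45 reached 1 RPM in at least 1 library and were tested. The 5 that did not were HNRNPA1L2, HNRNPA3P1, HNRNPLL, the row shared by HNRNPCL1, HNRNPCL3 and HNRNPCL4, and SRSF10, which was listed at 0 in all 4 libraries. The question put to these genes was which of them differ when SLEAR is targeted. Over all 4 libraries (limma-trend on log2(RPM + 1), 12350 rows, Benjamini-Hochberg adjustment), 0 members were higher and 0 lower at an adjusted p under 0.05, where 0.0% of all rows were called. Without adjustment, 3 members were higher at a p under 0.05 (HNRNPAB, SF3A2 and SF3B5) and 1 was lower (HNRNPH2), beside 0.745% and 1.94% of all rows. Limma-voom on estimated reads also called 0 after adjustment, and before it 3 members higher and 2 lower, beside 0.559% and 1.8% of all rows. All 3 SLEAR shRNA libraries lay above Control for 8 of the 45 members (17.8%; 17.8% of all tested rows), and all 3 lay below it for 17 (37.8%; 28.6% of all tested rows). Among the 29 members with a mean log2 value of 4 or more, 6 (20.7%) lay above Control in all 3 libraries, where 25.0% of the 4851 rows at that level did, and 12 (41.4%) lay below it, where 25.6% did. Every difference shares the 1 Control library, and these counts take in a difference of any size.

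**Figure D1:**
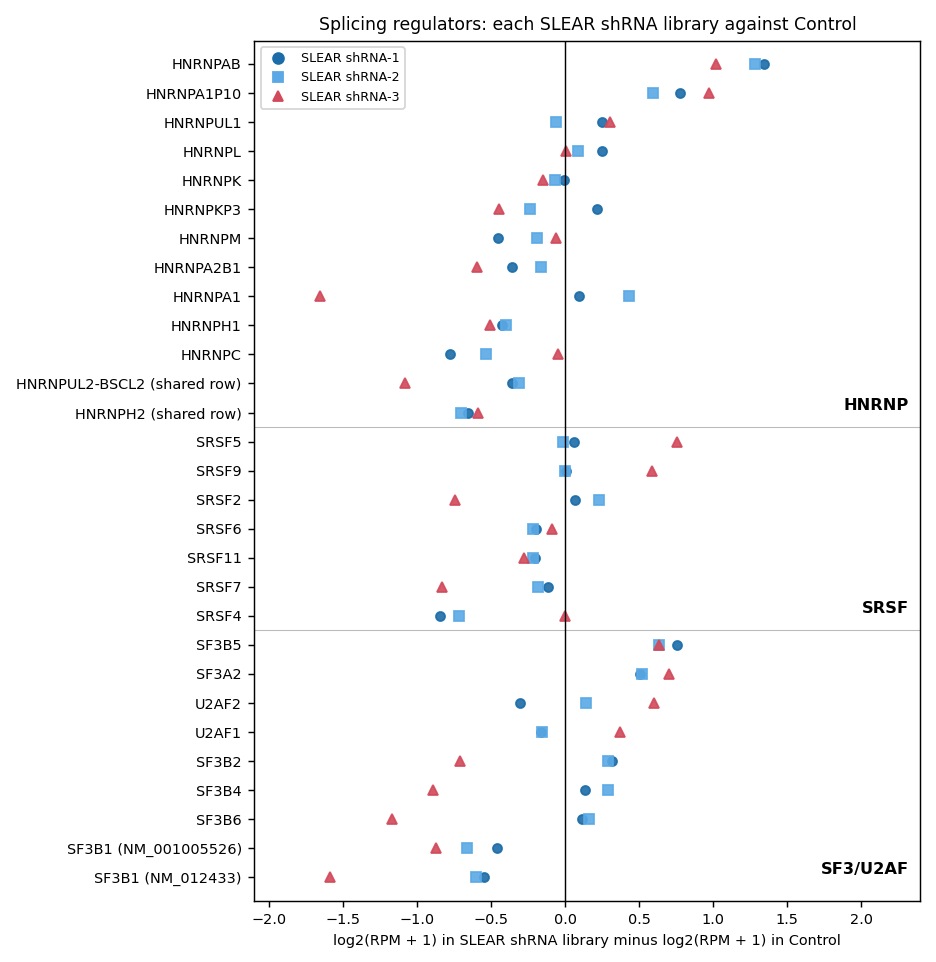
Difference of each SLEAR shRNA library from Control, on the log2(RPM + 1) scale, for 29 members at a mean log2 value of 4 or more, in the groups HNRNP, SRSF and SF3/U2AF; circles, squares and triangles are SLEAR shRNA-1, -2 and -3, and the vertical line at 0 is Control. HNRNPAB lies to the right in all 3 libraries, and both SF3B1 rows and the HNRNPH2 row lie to the left in all 3. The triangles of SF3B2, SF3B4, SF3B6, SRSF2 and HNRNPA1 lie left of the line while the other libraries lie right of it.

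A second comparison left out SLEAR shRNA-3 and kept the 4851 rows whose mean log2 value reached 4, a pair of choices known from earlier work on these data. That mean was taken over all 4 libraries, so SLEAR shRNA-3 still had a part in which rows were kept. There, limma-trend called 7.11% of all rows higher and 7.26% lower at an adjusted p under 0.05. Of the 29 members in it, 3 (10.3%) were higher and 5 (17.2%) lower. The higher rows were HNRNPAB, SF3B5 and SF3A2, and the lower rows were SRSF4, HNRNPH2, both SF3B1 rows and HNRNPH1. Limma-voom on the same libraries called 3 and 5 members too, beside 6.68% and 8.23% of all rows. In this limma-trend fit the spread came from a single pair of SLEAR shRNA libraries and was pooled completely over rows. Each adjusted p therefore rests on a spread shared by rows of similar level, and not on the row's own pair. Control added no measured spread. Without the minimum level, limma-trend called 0 rows in either direction, and before adjustment 6 members were higher and 5 lower, beside 6.28% and 7.23% of all rows.

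**Figure D2:**
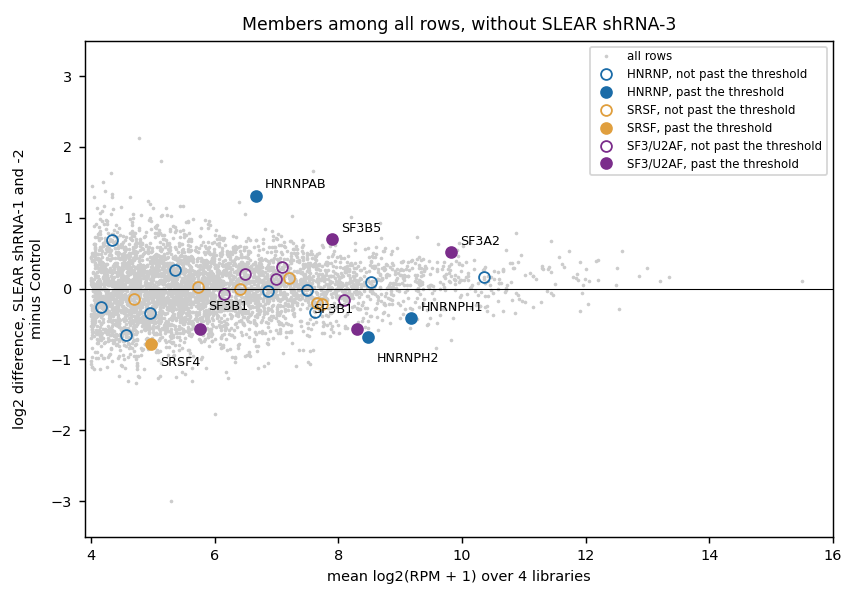
Log2 difference of SLEAR shRNA libraries 1 and 2 from Control against the mean log2(RPM + 1) over 4 libraries, for 4851 rows (grey) and 29 members (coloured by group; filled where the adjusted p was under 0.05, open where it was not). The 8 filled members span from SRSF4 at -0.78 to HNRNPAB at 1.31, and the open members lie closer to 0 or in the wider, low part of the cloud.

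Among HNRNP genes, HNRNPAB had the largest difference of the members above a mean log2 of 4. HNRNPAB, a relative of HNRNPD that binds RNA and single-stranded DNA, was at 136, 130.4 and 108 RPM in SLEAR shRNA, against 53.1 RPM in Control. Every SLEAR shRNA library lay above the 1 Control library, as was so for 25.0% of the 4851 rows at a mean log2 value of 4 or more. The log2 difference was 1.21 ± 0.23 (SE; unadjusted p = 0.00481, limma-trend adjusted p = 0.993) over all libraries. Without SLEAR shRNA-3, HNRNPAB rose 2.48-fold on the log2(RPM + 1) scale (limma-trend adjusted p = 1.29e-10), the 9th largest increase among the 4851 rows.

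HNRNPH1 and HNRNPH2, close relatives that bind runs of G and set the choice of nearby exons, were both lower. HNRNPH2 was at 316, 306 and 332 RPM in SLEAR shRNA, against 499.8 RPM in Control, and its row also names the readthrough gene RPL36A-HNRNPH2, so reads of the pair cannot be told apart. HNRNPH1 was at 544, 552 and 514 RPM in the SLEAR shRNA libraries, against 730.1 RPM in Control. For both genes the 3 SLEAR shRNA libraries lay close together and below Control. Over all libraries the log2 differences were -0.65 ± 0.17 (SE, unadjusted p = 0.0160) for HNRNPH2 and -0.44 ± 0.17 (SE, unadjusted p = 0.0572) for HNRNPH1. Without SLEAR shRNA-3, HNRNPH2 fell and was 1.61-fold lower (limma-trend adjusted p = 8.52e-05), and HNRNPH1 fell and was 1.33-fold lower (adjusted p = 0.0166). The sum of the 2 rows was 860, 858 and 846 RPM in SLEAR shRNA and 1229.9 RPM in Control, and HNRNPH1 made up 63.2%, 64.3% and 60.8% of it in SLEAR shRNA and 59.4% in Control. HNRNPH3, a shorter relative, was at 3.26, 0.797 and 8.72 RPM in SLEAR shRNA, on both sides of 5.84 RPM in Control.

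Another 4 HNRNP rows with many reads lay nearer to Control. HNRNPL, which binds CA repeats and restrains exons of the T cell gene PTPRC, was at 1464, 1306 and 1233 RPM in SLEAR shRNA, against 1229.95 RPM in Control. HNRNPUL1, a relative of HNRNPU with a part in the response to DNA damage, was at 402, 324 and 418 RPM in SLEAR shRNA, on both sides of 338 RPM in Control. The SLEAR shRNA libraries reached Control's level or lay close to it in both genes. HNRNPK, which binds runs of C, was at 119, 114 and 108 RPM in SLEAR shRNA and 119.7 RPM in Control, a log2 difference of -0.07 ± 0.19 (SE). HNRNPM, which binds GU-rich RNA, was at 162, 194 and 213 RPM in SLEAR shRNA and 222 RPM in Control, lower in each but by little in SLEAR shRNA-3. None of these 4 passed in either comparison.

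HNRNPA1 and HNRNPA2B1, classical repressors of exon inclusion, were listed at modest levels. HNRNPA1 was at 52.2, 66.1 and 14.7 RPM in SLEAR shRNA and 48.8 RPM in Control, so SLEAR shRNA-3 alone was low. The row of its pseudogene HNRNPA1P10, whose identifier in the table shares its leading number with HNRNPA1, was at 22.1, 19.4 and 25.5 RPM in SLEAR shRNA, against 12.5 RPM in Control, above Control in all 3. HNRNPA1 gave 70.2%, 77.3% and 36.6% of the reads of the pair in SLEAR shRNA and 79.6% in Control, and how reads of near-identical copies were divided was not given in the sources used here. HNRNPA2B1 was at 15.9, 18.3 and 13.3 RPM in SLEAR shRNA, all below 20.6 RPM in Control. HNRNPC, which binds runs of U, was at 16.5, 19.7 and 28.0 RPM in SLEAR shRNA and 29.0 RPM in Control, and without SLEAR shRNA-3 it missed the threshold (log2 difference -0.66 ± 0.28 SE, limma-trend adjusted p = 0.0976). HNRNPKP3, a transcribed pseudogene of HNRNPK, was listed at 226, 165 and 143 RPM in SLEAR shRNA and 195 RPM in Control, more reads than HNRNPK itself in every library, so both rows are uncertain.

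Most of the other HNRNP rows were low. HNRNPR was at 2.98, 3.72 and 0 RPM in SLEAR shRNA, against 6.68 RPM in Control. HNRNPD (AUF1), which targets AU-rich messages for decay, was at 3.55, 4.25 and 5.19 RPM in SLEAR shRNA, against 7.75 RPM in Control. Its relative HNRNPDL went the other way, at 1.70, 2.53 and 3.74 RPM in SLEAR shRNA, against 0.239 RPM in Control, which is under the level of 0.358 RPM that a count of 0 allows there. None of the 3 passed over all 4 libraries, where 0.0% of rows were called, and all lay under the minimum level of the second comparison. HNRNPA3 was at 7.24, 13.2 and 0.415 RPM in SLEAR shRNA and 12.3 RPM in Control. The row shared by BSCL2, the lipid droplet protein seipin, and the readthrough gene HNRNPUL2-BSCL2 was at 31.8, 33.0 and 18.9 RPM in SLEAR shRNA, against 41.1 RPM in Control, below it in all 3 and lowest in SLEAR shRNA-3. HNRNPUL2 alone was at 2.84, 2.26 and 3.95 RPM in SLEAR shRNA and 4.05 RPM in Control. HNRNPU-AS1, a row named as an antisense RNA of HNRNPU, was at 8.23, 13.6 and 13.9 RPM in SLEAR shRNA, against 16.3 RPM in Control. It too lay below Control in all 3. Its symbol matched a protein-coding gene in RefSeq, so whether this row is separate from HNRNPU is uncertain. Whether the counting used strand was not given in the sources used here. HNRNPU, which holds RNA to the nuclear scaffold, was at 5.67, 7.44 and 3.53 RPM in SLEAR shRNA and 5.84 RPM in Control, and HNRNPA0 at 0.426, 3.06 and 0.208 RPM in SLEAR shRNA and 1.19 RPM in Control. Both lay on either side of Control. Several well-known members, among them HNRNPU, SRSF1, SRSF3 and SRSF10, were listed at a few RPM or at 0, and whether this reflects their expression or how reads were assigned to rows was not tested. Of the 22 HNRNP rows tested, 4 (18.2%) lay above Control and 11 (50%) below it in all 3 SLEAR shRNA libraries, beside 17.8% and 28.6% of all tested rows.

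**Figure D3:**
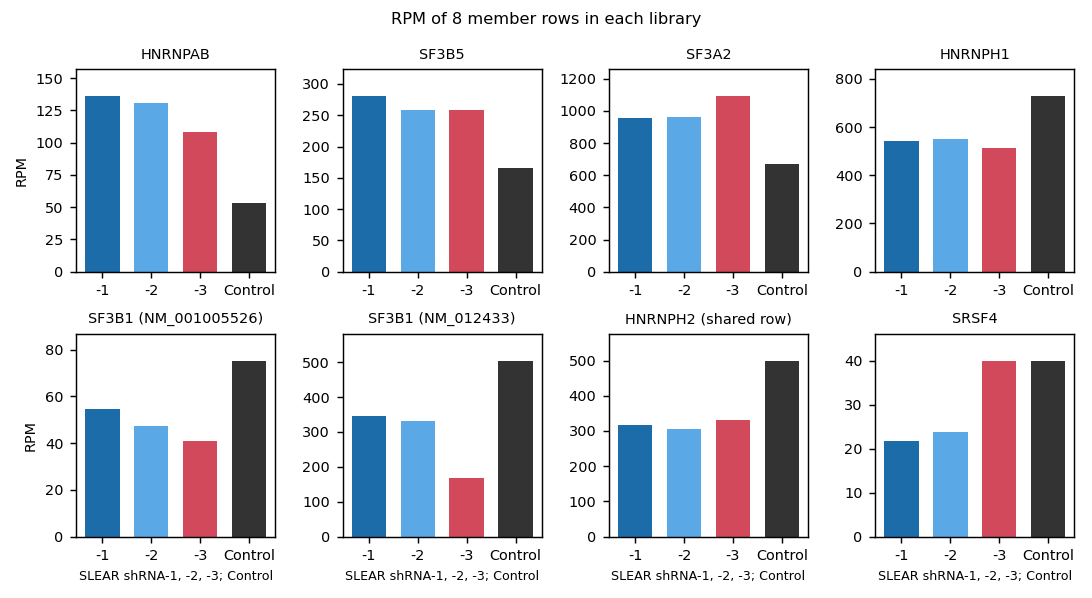
RPM in SLEAR shRNA-1, -2, -3 and Control, 1 bar per library and no replicate of Control, for the 8 member rows past the threshold without SLEAR shRNA-3. In the HNRNPAB, SF3B5 and SF3A2 panels all 3 SLEAR shRNA bars exceed Control; in the HNRNPH1, SF3B1 and HNRNPH2 panels all 3 are lower; in the SRSF4 panel SLEAR shRNA-3 equals Control at 40.1 RPM.

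Among SR protein genes, SRSF4 alone passed in the comparison without SLEAR shRNA-3, 1 of 7 rows (14.3%), beside 7.26% of all rows called lower. SRSF4, which carries a long tail of arginine and serine repeats, was at 21.8, 23.9 and 40.1 RPM in SLEAR shRNA, against 40.1 RPM in Control. Libraries 1 and 2 were low and SLEAR shRNA-3 lay level with Control. Without SLEAR shRNA-3, SRSF4 fell and was 1.72-fold lower (limma-trend adjusted p = 0.0198), and with it the log2 difference was -0.52 ± 0.45 (SE, unadjusted p = 0.309). Neither of its close relatives SRSF5 and SRSF6 passed. SRSF6 was at 190.4, 187 and 205 RPM in SLEAR shRNA, against 218 RPM in Control. SRSF5 was at 47.1, 44.5 and 76.9 RPM in SLEAR shRNA and 45.1 RPM in Control, higher in SLEAR shRNA-3 alone.

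Among the other SR genes, SRSF11, a relative with an unusual RNA-binding domain, was at 208, 207 and 197 RPM in SLEAR shRNA, all below 239.8 RPM in Control, a log2 difference of -0.23 ± 0.17 (SE, unadjusted p = 0.240). SRSF7, which carries a zinc knuckle, was at 27.9, 26.7 and 16.6 RPM in SLEAR shRNA, against 30.4 RPM in Control. Both had all 3 SLEAR shRNA libraries below Control, by less than would pass. SRSF9, a close relative of SRSF1, was at 75.8, 75.6 and 114 RPM in SLEAR shRNA and 75.6 RPM in Control, so libraries 1 and 2 lay level with Control. SRSF2, which binds enhancers in exons and acts in transcriptional pausing, was at 166, 186 and 94.3 RPM in SLEAR shRNA, on both sides of 159 RPM in Control. The low library was again SLEAR shRNA-3. SRSF8, a retrotransposed copy of SRSF2, was at 9.65, 5.05 and 5.40 RPM in SLEAR shRNA, against 11.7 RPM in Control, below it in all 3. It was not past the threshold over all 4 libraries and lay under the minimum level of the second comparison. SRSF1, the founding member of the family, was at 1.70, 2.79 and 15.99 RPM in SLEAR shRNA and 1.19 RPM in Control, and SRSF3, the smallest SR protein, at 1.70, 0.664 and 0 RPM in SLEAR shRNA and 0.358 RPM in Control. For SRSF1 the high value was in SLEAR shRNA-3 alone. Of the 10 SRSF rows tested, 2 (20%) lay above Control and 4 (40%) below it in all 3 SLEAR shRNA libraries, beside 17.8% and 28.6% of all tested rows. The 2 above were SRSF1 and SRSF9, and SRSF9 exceeded Control by log2 differences of only 0.0028 and 0.00019 in libraries 1 and 2. The SRSF group summed to 750.2, 759 and 765 RPM in SLEAR shRNA against 821 RPM in Control.

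Within the U2 complexes, subunits went in different directions. SF3B1, the large scaffold that encloses the branch site, was represented by 2 rows with different RefSeq transcripts. The row of NM_012433 was at 345, 332 and 167 RPM in SLEAR shRNA, against 505 RPM in Control, and the row of NM_001005526, a shorter transcript form, was at 54.5, 47.2 and 40.7 RPM in SLEAR shRNA, against 75.4 RPM in Control. Both rows were lower in all 3 libraries and lowest in SLEAR shRNA-3. Over all libraries the log2 differences were -0.91 ± 0.48 (SE, unadjusted p = 0.126) and -0.67 ± 0.28 (SE, unadjusted p = 0.0682). Without SLEAR shRNA-3 both rows fell, to levels 1.49-fold and 1.48-fold lower than Control (limma-trend adjusted p = 0.00116 and 0.0376). The NM_012433 row made up 86.4%, 87.6% and 80.4% of the SF3B1 reads in SLEAR shRNA and 87.0% in Control.

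SF3B5 and SF3A2 were higher in every SLEAR shRNA library. SF3B5, a small subunit of the SF3B core, was at 281, 258 and 258 RPM in SLEAR shRNA, against 166 RPM in Control, a log2 difference of 0.67 ± 0.18 (SE, unadjusted p = 0.0155). SF3A2, a subunit of the SF3A complex, was at 955, 962 and 1094 RPM in SLEAR shRNA, against 671 RPM in Control, a log2 difference of 0.58 ± 0.20 (SE, unadjusted p = 0.0374). In both genes the 3 SLEAR shRNA values lay close together and clear of Control. Without SLEAR shRNA-3, SF3B5 rose 1.62-fold (limma-trend adjusted p = 0.000237) and SF3A2 rose 1.43-fold (adjusted p = 0.00115).

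Other subunits of SF3B were marked by SLEAR shRNA-3. SF3B2, which anchors U2 near the branch site, was at 171, 169 and 83.7 RPM in SLEAR shRNA, on both sides of 138 RPM in Control. SF3B4, which contacts RNA upstream of the branch site, was at 106, 118 and 51.7 RPM in SLEAR shRNA and 96.8 RPM in Control. SF3B6 (p14), which lies next to the branch adenosine, was at 159, 165 and 64.8 RPM in SLEAR shRNA and 147 RPM in Control. In all 3 genes, libraries 1 and 2 were above Control and SLEAR shRNA-3 was below it; SF3B2, SF3B4 and SF3B6 had log2 differences of -0.03, -0.16 and -0.30 with that library and 0.30, 0.21 and 0.14 without it, and none passed. Rows with fewer reads varied as much. SF3B3 was at 6.67, 8.90 and 0 RPM in SLEAR shRNA and 6.80 RPM in Control. SF3A3 went the other way in SLEAR shRNA-3, at 6.81, 8.90 and 31.8 RPM in SLEAR shRNA and 13.1 RPM in Control, and SF3A1 was at 0.993, 1.46 and 0 RPM in SLEAR shRNA and 0.596 RPM in Control.

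U2AF differed by less than the spread between libraries. U2AF1, which reads the AG at the 3' splice site, was at 240.6, 240.7 and 348 RPM in SLEAR shRNA, on both sides of 269 RPM in Control. U2AF2, which binds the polypyrimidine tract, was at 52.5, 71.8 and 98.9 RPM in SLEAR shRNA and 65.0 RPM in Control. In both, SLEAR shRNA-3 was the highest library. U2AF1L4, a paralog of U2AF1, was at 19.6, 25.8 and 4.44 RPM in SLEAR shRNA and 15.0 RPM in Control. Of the 13 SF3/U2AF rows, 2 (15.4%) lay above Control, 2 (15.4%, both SF3B1) below it and 9 (69.2%) did neither, beside 17.8%, 28.6% and 53.6% of all tested rows.

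**Figure D4:**
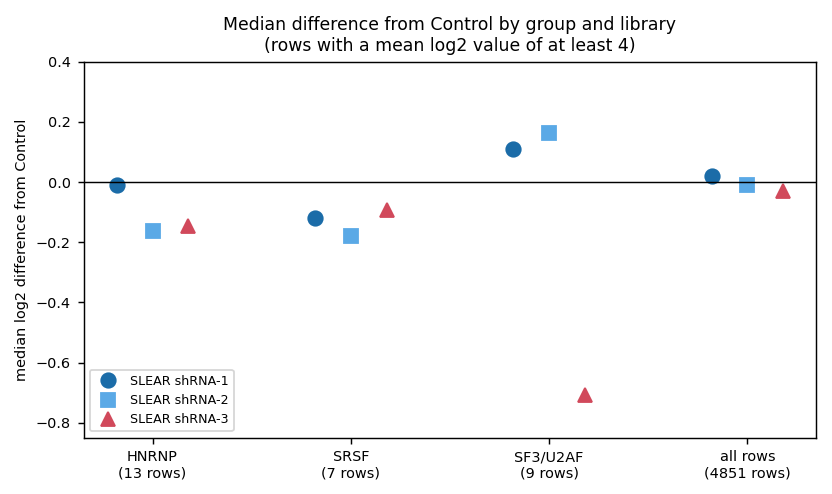
Median log2 difference from Control over the members of each group at a mean log2 value of 4 or more, and over all 4851 such rows, for SLEAR shRNA-1 (circles), -2 (squares) and -3 (triangles). The SF3/U2AF median is above 0 in libraries 1 and 2 and at -0.71 in SLEAR shRNA-3, while the SRSF median is below 0 in all 3.

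By group, and among rows whose mean log2 value reached 4, the 13 HNRNP rows had median log2 differences from Control of -0.01, -0.16 and -0.15 in the SLEAR shRNA libraries. Those of the 7 SRSF rows were -0.12, -0.18 and -0.09, and those of the 9 SF3/U2AF rows were 0.11, 0.16 and -0.71, beside 0.02, -0.01 and -0.03 over all 4851 rows. Over all tested members the median log2 difference was -0.36 for HNRNP, -0.16 for SRSF and -0.05 for SF3/U2AF, beside -0.11 for all tested rows. Without SLEAR shRNA-3 these medians were -0.28, -0.074 and 0.16, so that of SF3/U2AF turned. At a mean log2 value of 4 or more, the HNRNP median was -0.24 with all libraries and -0.038 without SLEAR shRNA-3.

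Genes of the splicing machinery outside these families were read from 4 fixed lists, and over all 4 libraries limma-trend and limma-voom called 0 of their members, with or without adjustment. The lists were chosen with earlier results known. Of 17 tested rows of U1, Sm and related snRNP proteins, 3 (17.6%) lay above Control and 4 (23.5%) below it in all 3 SLEAR shRNA libraries, beside 17.8% and 28.6% of all tested rows. SNRPD1, of the Sm ring, was at 26.5, 17.5 and 13.9 RPM in SLEAR shRNA, against 36.6 RPM in Control. SNRPA, which binds a loop of U1 RNA, was at 143, 149.8 and 130.2 RPM in SLEAR shRNA, against 109 RPM in Control. SNRNP27, of the tri-snRNP, was at 28.2, 31.8 and 47.6 RPM in SLEAR shRNA, against 51.9 RPM in Control. Each lay on 1 side of Control, SNRPA above it and the others below. Without SLEAR shRNA-3, SNRPD1 and SNRNP27 fell (limma-trend adjusted p = 0.0359 and 0.0103), 2 of 12 rows in that list with 0 that rose, beside 7.26% and 7.11% of all rows.

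Of 25 tested PRP, LSM and tri-snRNP rows, 4 (16%) lay above and 9 (36%) below Control in all 3 SLEAR shRNA libraries, beside 17.8% and 28.6% of all tested rows. PRPF19, of the complex that activates the spliceosome, was at 440.2, 415 and 534 RPM in SLEAR shRNA, against 354 RPM in Control. PRPF6, which bridges the parts of the tri-snRNP, was at 68.1, 66.6 and 61.1 RPM in SLEAR shRNA, against 50.8 RPM in Control. CWC27, a cyclophilin of the spliceosome, was at 5.11, 5.58 and 3.95 RPM in SLEAR shRNA, against 1.31 RPM in Control. All 3 were higher in every SLEAR shRNA library, and none passed, though CWC27 lay under the minimum level of the second comparison. Without SLEAR shRNA-3, LSM7 rose and SART3 fell among 15 rows of that list (limma-trend adjusted p = 0.0455 and 0.0400), beside 7.11% and 7.26% of all rows. The library left out went the other way in both. LSM7, of the ring on U6 RNA, was at 389, 409 and 229 RPM in SLEAR shRNA and 306 RPM in Control, and SART3, which helps to recycle U6, was at 15.9, 20.6 and 60.2 RPM in SLEAR shRNA and 31.7 RPM in Control.

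The list that holds SR-related proteins, the kinases that phosphorylate SR proteins and the exon junction complex had 3 of 23 tested rows (13.0%) above and 7 (30.4%) below Control in all 3 libraries, beside 17.8% and 28.6% of all tested rows. TNPO3, the import receptor that carries SR proteins into the nucleus, was at 64.7, 71.5 and 124 RPM in SLEAR shRNA, against 128 RPM in Control, low in libraries 1 and 2 and nearly level with Control in SLEAR shRNA-3. SRPK1, an SR protein kinase, was at 109.8, 95.0 and 108 RPM in SLEAR shRNA, against 142 RPM in Control, below it in all 3. SRPK2, its relative, was at 13.6, 17.9 and 51.5 RPM in SLEAR shRNA and 29.7 RPM in Control, so that SLEAR shRNA-3 alone was high. Without SLEAR shRNA-3, TNPO3, SRPK1, ARGLU1 and SRPK2 fell (limma-trend adjusted p = 7.76e-05, 0.0463, 0.0364 and 0.0243), 4 of 14 rows with 0 that rose, beside 7.26% and 7.11% of all rows. ARGLU1, an arginine-rich splicing modulator, was at 368, 345 and 295 RPM in SLEAR shRNA, against 468 RPM in Control, and SREK1, an SR-related regulator, was near the limit of detection at 0.284, 0 and 0 RPM in SLEAR shRNA and 1.43 RPM in Control.

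Among 36 tested rows of other splicing regulators, 6 (16.7%) lay above and 10 (27.8%) below Control in all 3 libraries, beside 17.8% and 28.6% of all tested rows. Without SLEAR shRNA-3, 0 of 20 passed in either direction in limma-trend, beside 7.11% higher and 7.26% lower over all rows. PTBP1, a repressor that binds pyrimidine tracts, was at 241, 256 and 221 RPM in SLEAR shRNA, against 194 RPM in Control. TARDBP (TDP-43), which binds UG repeats, was at 0.851, 1.46 and 0.208 RPM in SLEAR shRNA, against 3.94 RPM in Control. KHDRBS3, a STAR family protein, was at 0.851, 0.797 and 0 RPM in SLEAR shRNA, against 2.74 RPM in Control. PTBP1 lay above Control in all 3 libraries and the other 2 genes, both of a few RPM at most, lay below it. Over the 4 lists in the order given, the median log2 differences were -0.07, -0.20, -0.24 and -0.14, beside -0.17 for the 45 members and -0.11 for all tested rows.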

How the data were processed

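Polyadenylated RNA of 4 Jurkat libraries was read at its 3' ends, per the labels' protocols. The authors deposited RPM for each transcript row; FastQC, Bowtie2, SAMtools and hg19 are named without versions per the submitters' processing notes. How reads were assigned to rows was not given in the sources used here.

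Rows that repeated another row's values exactly, at a mean of 1 RPM or more, were merged (177 removed). Depth was taken from the smallest spacing of low values; a value of 0 allows 3 reads, which is 0.426, 0.399 and 0.623 RPM in the SLEAR shRNA libraries and 0.358 RPM in Control (counting error only). Limma-trend did not treat values as counts, while limma-voom was run on read numbers estimated from that spacing. SLEAR shRNA was compared with Control by limma-trend (limma 3.58.1, R 4.3.3) on log2(RPM + 1), over the 12350 rows that reached 1 RPM anywhere; p-values were adjusted after Benjamini and Hochberg and called under 0.05. The spread came from the SLEAR shRNA libraries, and Control is taken to vary by as much. A fold on this scale understates changes of low rows. The limma-trend fit of all 4 libraries was tested on simulated data for recovery of the log2 difference, which bears on the estimate and not on the p-values. The fits without SLEAR shRNA-3 were not tested in this way.

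Members and lists were chosen with earlier results of these data known. Values were given for members past the threshold, the 5 smallest p in each direction and the 2 smallest differences per group, members with several rows, those where SLEAR shRNA-3 stood apart, and 3 genes per list. Other members with values, and list genes that passed without SLEAR shRNA-3, were named after their values were seen. Symbols of all 50 member rows matched the RefSeq table. PTBP2, PTBP3 and RBM17 are not analysed here. Alternatives were other pseudocounts, filters, size factors, limma-voom, leaving out libraries, summing rows and leaving out uncertain rows.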

Additional observations from a re-analysis of the deposited data

How the results depend on the processing

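No paired analysis was possible because there was only 1 Control library and the labels name no pairing. Leaving out 1 SLEAR shRNA library at a time called 0 members and gave median log2 differences of -0.36 to -0.28 for HNRNP, -0.20 to -0.074 for SRSF and -0.21 to 0.16 for SF3/U2AF; the members with every remaining library above Control then numbered 9 to 16, the most without SLEAR shRNA-3, and those below 18 to 21, against 8 and 17 with all libraries, counts that cannot fall when a library is left out of the same rows. With no filter on low rows, limma-trend called 1 row higher and 376 lower over the whole table and 0 members. With a minimum mean log2 value of 4, the HNRNP median was -0.24. Without SLEAR shRNA-3 and at that minimum, 345 rows and 3 members were higher, 352 rows and 5 members were lower, and the HNRNP median was -0.038. The same choice gave 324 and 399 rows, 3 and 5 members and an HNRNP median of -0.039 with limma-voom, and 429 and 325 rows, 3 and 5 members and an HNRNP median of -0.012 with median-of-ratios size factors; both of these were chosen after seeing the data. The cause was not tested for any of these shifts.

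There were 14 alternatives, but leaving out uncertain rows gave no separate value for any single row. Rows under the minimum level, among them SRSF1, HNRNPR, HNRNPD, HNRNPDL and SRSF8, also had no value wherever that minimum was applied. Of 32 member rows examined, 23 kept the sign of their log2 difference under every alternative that gave them a value, and 9 turned. Leaving out 1 SLEAR shRNA library at a time, SF3A1 (0.09 with all libraries) ranged between -0.18 and 0.47, with -0.025 between them, SRSF3 (0.28) between -0.074 and 0.64, SF3B3 (-0.88) between -1.49 and 0.16, U2AF1 (0.02) between -0.16 and 0.10, U2AF2 (0.15) between -0.081 and 0.37, SRSF2 (-0.15) between -0.34 and 0.15, SF3B2 (-0.03) between -0.21 and 0.30, SF3B4 (-0.16) between -0.38 and 0.21, and SF3B6 (-0.30) between -0.53 and 0.14. For the last 7 of these it was the value without SLEAR shRNA-3 that had the other sign. SF3A1 also turned to -0.33 with a pseudocount of 0.1 and -0.19 with limma-voom, U2AF1 to -0.0019 and SF3B2 to 0.0052 with limma-voom on all libraries. At the minimum level and without SLEAR shRNA-3, U2AF1, U2AF2, SRSF2, SF3B2, SF3B4 and SF3B6 were at -0.16, -0.081, 0.15, 0.30, 0.21 and 0.14 with limma-trend, at -0.16, -0.078, 0.15, 0.30, 0.21 and 0.14 with limma-voom, and at -0.13, -0.055, 0.17, 0.33, 0.24 and 0.16 with median-of-ratios size factors. None of the 9 passed the threshold under these settings. SLEAR shRNA-3 was the shallowest library, where 3 reads are worth 0.623 RPM, so a value of 0 there, as for HNRNPR, SRSF3, SF3A1 and SF3B3, allows a level up to that.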
